A study of Rattus norvegicus with 287 samples.

Results

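Blood RNA of obese rats treated with focused ultrasound for 7 weeks was compared with that of sham-treated obese rats, 5 libraries against 5, which are 10 of the 287 libraries of the series. The members were all libraries labelled as 7-week blood of obese ZDF rats. The series measured RNA in 8 tissues of diabetic and lean rats after peripheral focused ultrasound (pFUS), in which an external transducer sends pulsed sound to a chosen site, here the porta hepatis, where vessels and nerves enter the liver. The treated group, obese pFUS 6 to 10, consisted of male obese ZDF rats that received 3 min of sound a day at 1.1 MHz, with 200 mV pulses, bursts of 150 cycles and a burst period of 500 µs, for 7 weeks. The sham group, obese control 1 to 5, consisted of male obese ZDF rats handled alike with no energy applied. All rats of both groups were given isoflurane before each session. The labels give no age, each library carries its own rat number, and the rats of the treated and sham groups are different animals. For comparison, 10 blood libraries of lean Zucker males of the same duration were fitted in the same model. They were lean control 11 to 15 and lean pFUS 16 to 20. The DIO-stz cohort (diet-induced obesity and streptozotocin) gave 9 blood libraries at 7 weeks, 4 control and 5 pFUS, which were fitted separately. That cohort held both sexes, and its fit included sex.

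ZDF rats become obese and diabetic because their leptin receptor does not signal. Whole blood RNA comes mostly from reticulocytes, the young red cells that still carry globin messenger, and the remainder comes from white cells and platelets. Monocytes, the circulating precursors of many macrophages, depend on the receptor Csf1r and on the transcription factors Cebpb and Klf4. The heat shock response is a general stress programme in which heat shock factor 1 switches on chaperones that refold damaged proteins. In the main edgeR fit, no gene of these programmes passed the adjusted threshold in obese blood, while DESeq2 called Cebpb and Hsph1.

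The label of the tissue was checked against blood markers in CPM of all counts, that is, the count scaled by the library total alone. Alas2, the first enzyme of haem synthesis in red cells, ran from 2863 to 3601 over the 10 obese libraries, and Slc4a1, the anion exchanger of the red cell membrane, from 692 to 1293. The monocyte receptor Csf1r ran from 30.2 to 195, the T cell receptor subunit Cd3e from 7.71 to 31.4, the B cell receptor subunit Cd79b from 7.28 to 45.9, the neutrophil protein S100a9 from 14.1 to 92.6 and the platelet chemokine Pf4 from 14.3 to 93.0. Adipoq and Umod, which mark fat cells and kidney, were at 0 in all 10 libraries, and Alb, which marks liver, was at most 1.30. Total counts ran from 19975208 to 32213868 in the controls and from 20465697 to 35239964 in the pFUS group. No pair of libraries within a group held identical values. Fewer cells of a type and less RNA per cell cannot be told apart in such bulk libraries.

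Several libraries stood apart from their group before any comparison was made. The library labelled obese control 5 held 1.60 CPM of Ifit1, an interferon-induced gene, by total counts, against 56.2 to 284 in the other 9 obese libraries and 0 to 4.32 in 9 of the lean ones. The same library held 15.7 of Xpo7 and 153 of Tmcc2, against at least 135 and at least 1839 in the other 9. Its level of Lcn2, at 0.400, lay with the obese libraries, which otherwise ran from 0.370 to 1.39. It did not lie with 9 of the lean ones, which reached at most 0.0274. In DIO-stz blood, Ifit1 ran from 2.46 to 81.3 CPM after TMM scaling, Xpo7 from 18.0 to 431 and Tmcc2 from 233 to 5041. These genes therefore also varied between rats of the same cohort. ENSRNOG00000030106 is a gene that is either on or nearly off in each rat. It stood at 6.90 CPM after TMM scaling in the blood labelled control 5 and at 0.306 in the liver. The intestine labelled control 5 stood at 45.5, and the muscle, kidney and brain at 0.416, 0.356 and 0.708. Which rat gave the blood labelled control 5 was not tested. For this gene the tissues labelled pFUS 8 and pFUS 9 also went against each other. In blood it stood at 0.220 in pFUS 8 and 4.28 in pFUS 9, and in liver at 6.75 and 0.216. Both numbers belong to the pFUS group, so the groups compared in blood are the same whichever way these 2 numbers are read. Without control 5, no gene passed the threshold in obese blood, as with it. Among the lean libraries, lean control 12 and lean pFUS 18 had the lowest scaling factors, at 0.411 and 0.429, and lean pFUS 19 held Lcn2 at an obese level of 0.569.

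Haemoglobin messenger took up a smaller share of the counts after pFUS. It made up 89.9%, 89.8%, 90.4%, 87.6% and 87.6% of the counts in obese control 1 to 5. In obese pFUS 6 to 10 it made up 82.8%, 83.7%, 87.5%, 87.5% and 87.3%. The groups did not overlap, but the lowest control and the highest pFUS library differed only in the second decimal, at 87.57% and 87.54%, and pFUS 6 and pFUS 7 were well below the rest. The means were 89.1% ± 1.36 (SD, n = 5) and 85.8% ± 2.33 (SD, n = 5), a difference of -3.29 percentage points, with a two-sided exact permutation p of 0.00794, which is the smallest that 5 against 5 can give. Adjusted over the 2 library values tested, it was 0.0159, and total counts did not differ detectably, with an exact p of 0.921. Without pFUS 6 and pFUS 7 the difference was -1.61 percentage points, with an exact p of 0.0357, which is the smallest that 3 against 5 can give.

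The haemoglobin share is the sum of 11 genes of the file, and 1 of them, LOC100134871, which the RefSeq table does not name, held 14.5% to 17.6% of all counts in the obese libraries. Without it the difference was -3.78 percentage points, with an exact p of 0.0238. With the red cell list added to the haemoglobin genes, the difference was -3.07 percentage points and the exact p was 0.0556, so the call was lost. In lean blood the haemoglobin share was 88.9% ± 1.75 (SD, n = 5) in controls and 88.4% ± 2.58 (SD, n = 5) after pFUS.

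**Figure D1:**
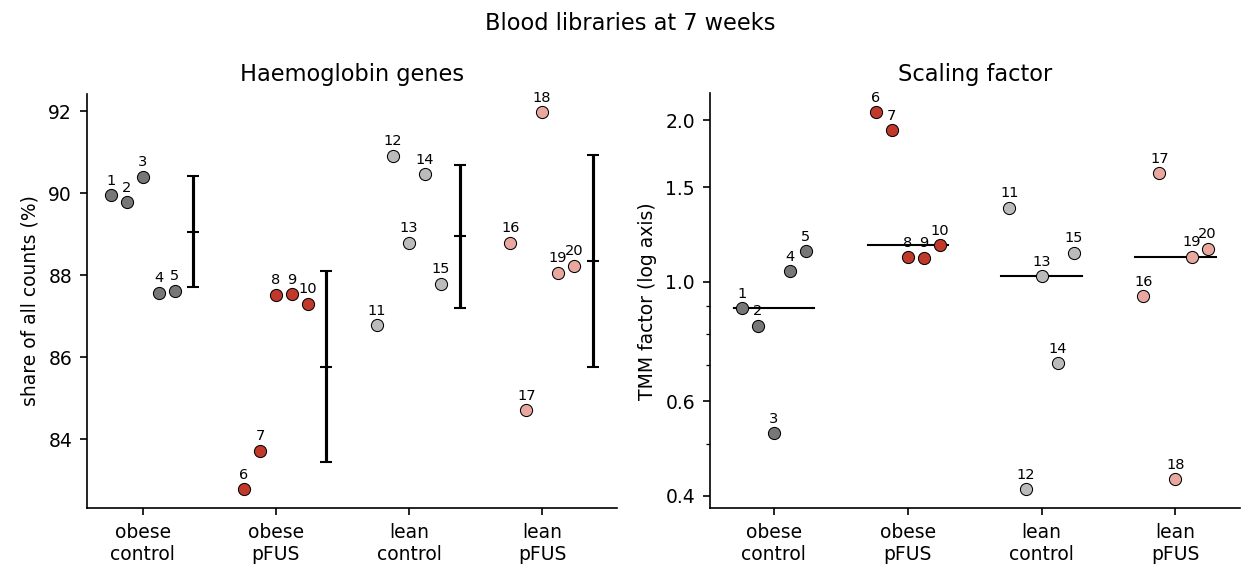
Left, the share of all counts from haemoglobin genes (%) in each 7-week blood library, numbered by rat, with mean and SD as bars to the right of each group. Right, the scaling factor of each library on a log axis, with the group median as a line. Obese pFUS 6 and 7 sit lowest in share, at 82.8% and 83.7%, and highest in factor, at 2.07 and 1.91.

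The scaling factors of the libraries also differed between the groups. The factors of the trimmed mean of M-values (TMM), which bring the bulk of genes to a common level, ran from 0.523 to 1.14 in obese controls and from 1.11 to 2.07 after pFUS. On the resulting scale, used below as scaled CPM, the median gene had a log2 fold change of -0.02. When the total counts alone set the scale, the median log2 fold change of all genes was 0.73, 3608 genes were higher at an unadjusted p under 0.05 and 6 were lower, with none past the adjusted threshold. Fold changes below are on the TMM scale, which takes the median gene as level. A gene measured against total counts reads higher by about that much. Of the 35 gene lists, 20 had a median below 0 on the TMM scale, and 17 of these turned above 0 on total counts, all but the haemoglobin, heat shock and eosinophil and basophil lists. Of 63 named genes, 36 were below 0 and 14 of these turned, while none turned from above 0 to below.

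After a filter on low counts, 9400 genes were tested with edgeR's quasi-likelihood test. None was higher and none lower at an adjusted p under 0.05, a share of 0%, and the lowest adjusted p was 0.272. At an unadjusted p under 0.05, 457 genes were higher (4.86%) and 411 lower (4.37%). The groups did not overlap for 145 higher genes (1.54%) and 99 lower genes (1.05%). DESeq2, fitted to the same counts, called 1 gene higher, Cebpb, and 1 lower, Hsph1. With haemoglobin genes taken out of the scaling, the test called 0 genes, with 458 higher and 411 lower at an unadjusted p under 0.05. In counts simulated on these libraries, the same test recovered 61% of genes set to a 2-fold difference and 96% of those set to a 4-fold difference. Genes were drawn independently there, without shifts that many genes of a library share. These shares may therefore be too high for the real libraries. All single-gene values below come from the edgeR fit of the real counts unless another is named, and none of the genes passed its adjusted threshold.

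**Figure D2:**
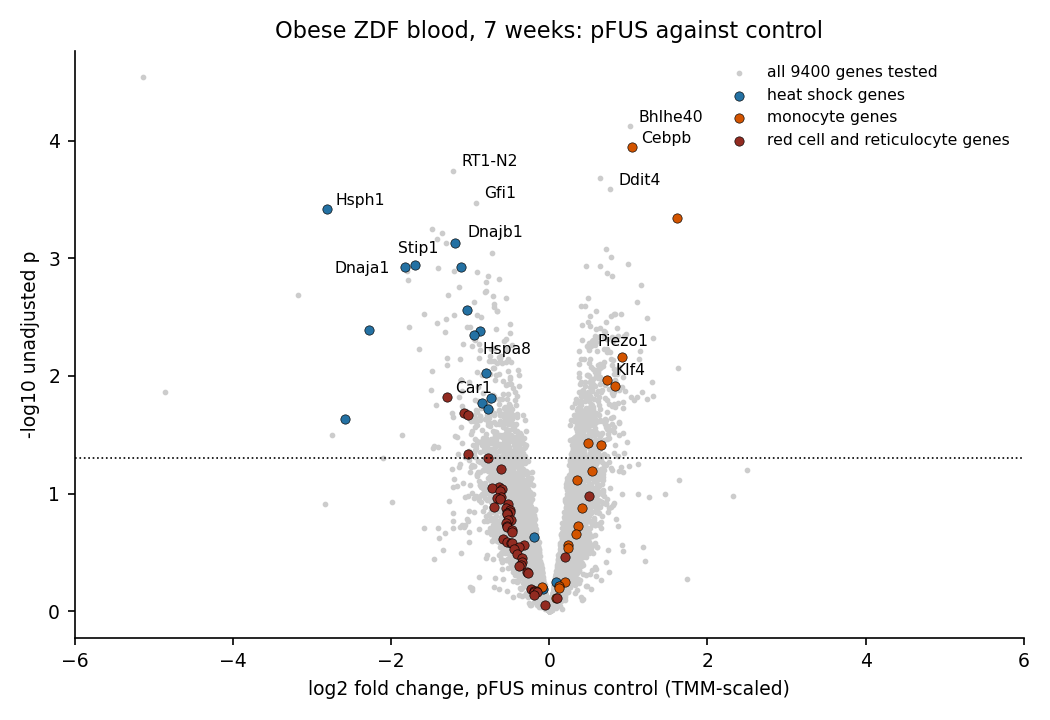
Log2 fold change (pFUS minus control, scaled CPM) against -log10 of the unadjusted p for the 9400 genes tested in obese blood. The dotted line marks an unadjusted p of 0.05, and members of the heat shock, monocyte and red cell lists are coloured. The heat shock genes lie to the left with Hsph1 at -2.81, and Cebpb, Bhlhe40 and Ddit4 lie highest on the right.

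Of the 35 gene lists, that of the heat shock chaperones had the largest share of members lower at an unadjusted p under 0.05, 82.4%, and the high values were those of 2 of the 5 control rats. Of 17 heat shock genes tested from a list of 22, 14 were lower and 0 higher at an unadjusted p under 0.05, beside 4.37% of all genes lower, and 0 passed the adjusted threshold. Their median log2 fold change was -0.95, beside -0.02 over all genes. With total counts as the scale, the median was -0.05 beside 0.73 over all genes. Hsph1, a co-chaperone of the Hsp70 system, stood at 1.91, 39.6, 41.9, 3.19 and 4.13 scaled CPM in control 1 to 5. After pFUS it stood at 2.57, 2.43, 2.82, 2.45 and 2.61. Controls 2 and 3 were far above every other library, and the other 3 controls lay on both sides of the pFUS group. The log2 fold change was -2.81 ± 0.65 (SE), with an adjusted p of 0.445 in edgeR and 0.00516 in DESeq2.

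On the TMM scale, the same 2 controls were the highest of the 10 libraries for 14 of the 17 heat shock genes. This order depended in part on the scale. By total counts the level summed over the list overlapped, at 165 to 564 CPM in the controls and 214 to 432 after pFUS. Control 3 then lay below pFUS 6 and pFUS 7 for Hspa8, Hsp90ab1, Hspd1 and Hspe1. Hspa8, the constitutive Hsp70 chaperone, stood at 183 and 182 scaled CPM in controls 2 and 3 and at 51.7 to 64.5 in the other 8 libraries. Hsp90aa1, the inducible Hsp90, stood at 81.4 and 31.4 in controls 2 and 3 and at 2.03 to 12.2 elsewhere. Hsp90ab1, its constitutive partner, stood at 193 and 219 against 62.6 to 77.4. Hspd1, the mitochondrial chaperonin, stood at 13.9 and 14.8 against 3.98 to 5.55. On total counts the log2 fold changes of Hsp90ab1 and Hspd1 turned from -0.79 and -0.87 to 0.09 and 0.07. Its cofactor Hspe1 was low throughout, at 1.62 and 2.47 against 0.396 to 1.08. For each of these genes the remaining controls and the pFUS libraries shared 1 range.

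The J-domain proteins, which hand clients to Hsp70, followed the same order. Dnajb1 stood at 17.7 and 14.6 scaled CPM in controls 2 and 3 and at 3.58 to 5.49 in the other 8 libraries, with a log2 fold change of -1.19 ± 0.30 (SE). Dnaja1 stood at 34.4 and 20.5 against 2.69 to 6.54, with a log2 fold change of -1.82 ± 0.48 (SE). Among the co-chaperones that link Hsp70 and Hsp90, Stip1 stood at 25.5 and 30.9 against 3.93 to 6.20, and Fkbp4 stood at 20.8 and 25.7 against 5.28 to 9.01. St13, another Hsp70 cofactor and not on the list, stood at 11.3 and 12.1 in controls 2 and 3 and at 3.22 to 5.50 in the rest. The inducible Hspa1b, whose near-identical copy in the genome makes its count uncertain, stood at 5.70 and 3.60 against 0 to 1.43. The 3 list members in which controls 2 and 3 were not the highest pair were Hspa5, Hspa4 and Hsf1. Hspa5 is the chaperone of the endoplasmic reticulum, and Hsf1 is the heat shock factor itself, with a log2 fold change of -0.08.

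Without controls 2 and 3, 0 of the 17 heat shock genes were lower at an unadjusted p under 0.05. Their median log2 fold change was then -0.08. These 2 controls were left out after their high levels of these genes were seen, so a smaller difference was bound to follow. Over all genes, leaving out those 2 controls gave 152 higher and 163 lower at an unadjusted p under 0.05, with 0 called. The log2 fold change of Hsph1 was then -0.26, that of Dnajb1 -0.25 and that of Hspa8 -0.08. On the TMM scale, controls 2 and 3 also held the highest summed levels of the platelet list, at 606 and 660 scaled CPM, against 73.1 to 444 in the other 8 libraries. By total counts the highest platelet sum was in the pFUS group, at 518 CPM against at most 502 in the controls. The part of platelets in the heat shock result was not tested.

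**Figure D3:**
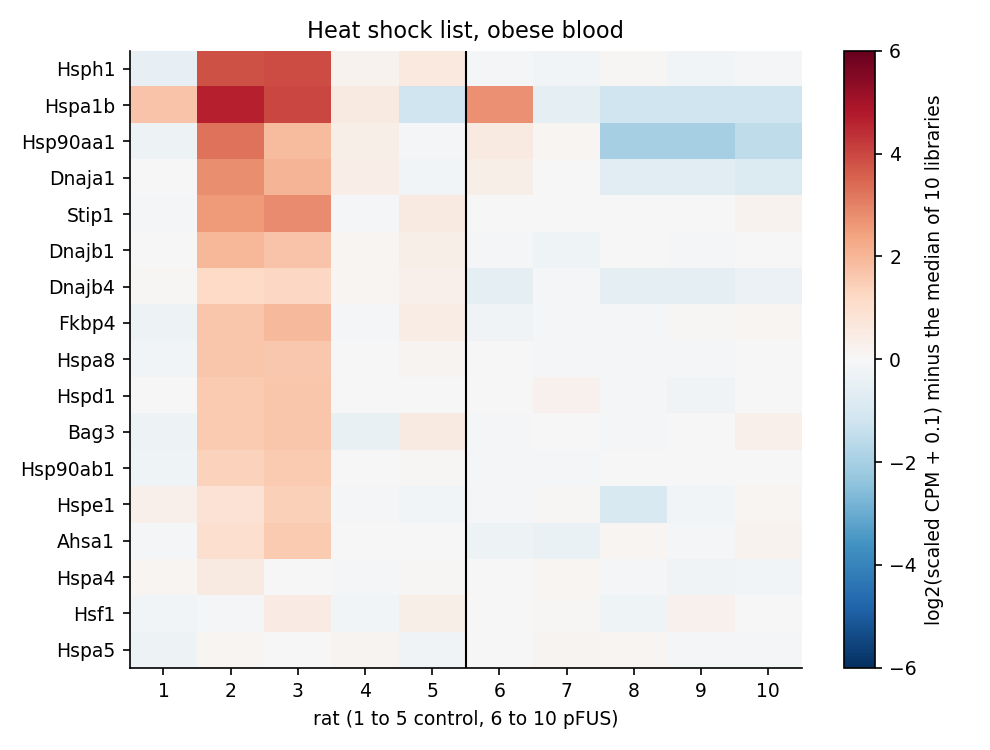
Level of each of the 17 heat shock genes in the 10 obese blood libraries, as log2(scaled CPM + 0.1) minus the median of the 10. Columns 2 and 3, both controls, are the highest 2 for 14 of the 17 genes, and the other 3 controls resemble the pFUS columns.

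Promoter sequences of 5 heat shock genes that stood high in the same 2 rats are shown, since the textbook regulatory element of such genes is the heat shock element, built of inverted GAA units. They show promoters with and without a match to it. The bases before the start site are given for Hsph1, Hspa8, Hspe1, Dnajb1 and Dnaja1, from RefSeq on build GRCr8, 5′ to 3′ on the strand of the gene, ending 1 base before the start site. Capitals mark GAANNTTCNNGAA or TTCNNGAANNTTC, which hold 3 units, or, where neither was found in the window (Dnajb1), GAANNTTC or TTCNNGAA, which hold 2. The window of Dnaja1 held none of these. Both orders were searched, so both strands are covered, and matches may overlap, as they do in Hspe1. The windows are chr12:10427268-10427367 (+) for Hsph1, chr8:50080414-50080513 (+) for Hspa8, chr9:64084227-64084326 (+) for Hspe1, chr19:41431142-41431241 (-) for Dnajb1 and chr5:60638304-60638403 (+) for Dnaja1.
Hsph1: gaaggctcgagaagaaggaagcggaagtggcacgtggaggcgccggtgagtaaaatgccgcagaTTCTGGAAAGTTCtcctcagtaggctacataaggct
Hspa8: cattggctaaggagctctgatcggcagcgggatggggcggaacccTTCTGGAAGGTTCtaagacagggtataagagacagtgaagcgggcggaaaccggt
Hspe1: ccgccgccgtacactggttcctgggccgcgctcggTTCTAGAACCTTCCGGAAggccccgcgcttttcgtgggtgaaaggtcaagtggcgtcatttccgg
Dnajb1: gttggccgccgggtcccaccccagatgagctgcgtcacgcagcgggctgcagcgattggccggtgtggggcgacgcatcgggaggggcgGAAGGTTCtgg
Dnaja1: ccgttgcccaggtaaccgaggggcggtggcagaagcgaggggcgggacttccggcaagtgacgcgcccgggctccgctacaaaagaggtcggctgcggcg

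Of the 17 heat shock genes tested, 13 were matched to a promoter of 300 bases, 250 before and 50 after the start site. A match of 3 units was found in 5 of the 13, a match of at least 2 units in 9, and the other 4 held neither. Over all 33469 promoters of the RefSeq table, 0.798% held 3 units and 15.9% held at least 2. The match of 3 units began 36 bases before the start site in Hsph1 and 55 bases before it in the window of Hspa8. In Hspe1, 2 overlapping matches began 65 and 60 bases before it. A match is a description of the letters and no evidence of binding in these libraries.

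The other tissues of the same obese rats showed the same 2 animals high. In the liver, Hsph1 stood at 142 and 284 scaled CPM in controls 2 and 3 and at 38.4 to 69.3 in the other 8 rats. In skeletal muscle it stood at 103 and 264 against 38.8 to 76.1, and in the kidney at 486 and 449 against 61.3 to 132. In the pancreas it stood at 108 and 105 against 7.51 to 15.4, and in the intestine at 856 and 983 against 60.2 to 119. The brain was closest to level, at 382 and 436 against 240 to 347. In all 7 tissues, blood included, controls 2 and 3 were the highest 2 of the 10 rats for Hsph1. Hspa1b spread furthest, with 513 and 1188 scaled CPM in the liver of controls 2 and 3 against 0.586 to 7.44 in the other 8.

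**Figure D4:**
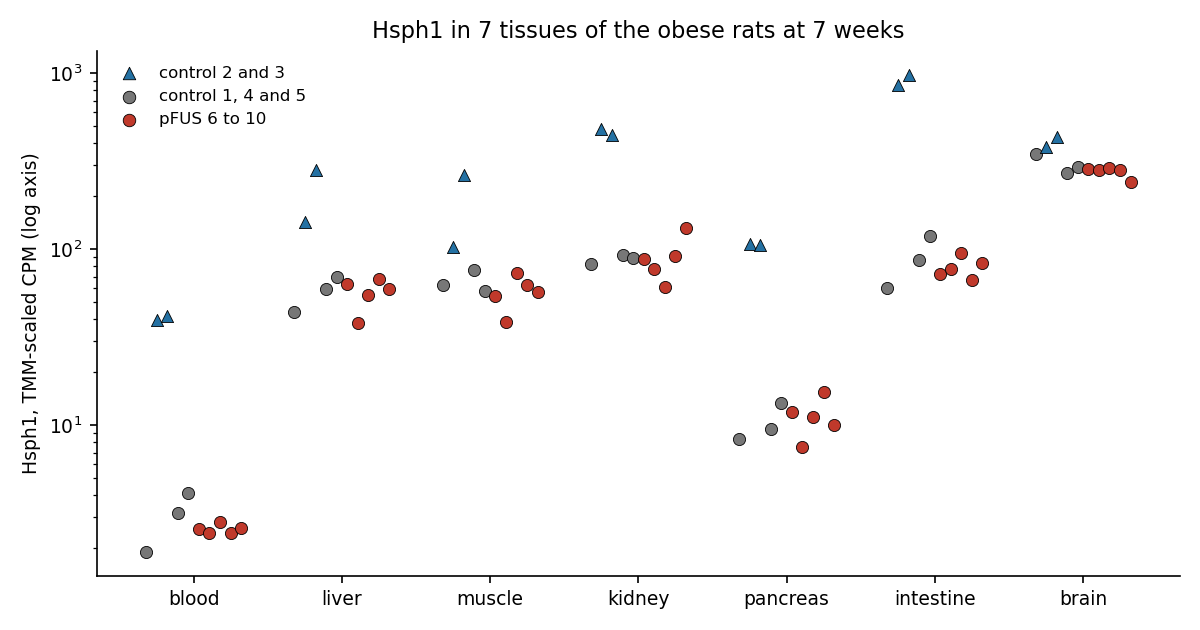
Hsph1 in scaled CPM (log axis) in blood and 6 other tissues of the 10 obese rats at 7 weeks, 1 point a rat in the order of their numbers. Triangles mark controls 2 and 3, which lie above all other rats in each tissue, from 39.6 and 41.9 in blood to 856 and 983 in intestine.

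Hsph1 was lower after pFUS in each of the 6 other tissues as well, by log2 fold changes of -1.08 in liver, -0.98 in muscle, -1.41 in kidney, -2.13 in pancreas, -2.42 in intestine and -0.32 in brain, none past the adjusted threshold of its own fit. These values share control rats with the blood comparison and with each other. In lean blood, which has its own controls, Hsph1 had a log2 fold change of 0.10 ± 0.64 (SE), and in blood of the DIO-stz cohort 0.12 ± 0.15 (SE). No lean or DIO-stz blood library reached the level of obese controls 2 and 3: the highest DIO-stz library stood at 6.75 scaled CPM. The median of the heat shock list in lean blood was 0.12.

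On the higher side, Bhlhe40 and Cebpb had the lowest unadjusted p-values. The genes Cebpb, Bhlhe40, Ddit4, Cebpa and Gfi1 were named after their values were seen, since their levels lie under the 5 CPM asked of the rule for named genes. Cebpb, a transcription factor of monocyte and macrophage activation, stood at 1.08, 1.31, 1.45, 1.89 and 1.54 scaled CPM in control 1 to 5. After pFUS it stood at 3.55, 2.98, 2.64, 2.92 and 2.96. Every pFUS library lay above every control, with a log2 fold change of 1.05 ± 0.22 (SE). The adjusted p was 0.353 in edgeR, 0.00509 in DESeq2 and 0.0279 in edgeR without the lean libraries 12 and 18. Leaving out any single library kept the log2 fold change between 0.96 and 1.17, and without controls 2 and 3 it was 1.00.

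Bhlhe40, a repressor of the clock family that activated leukocytes use, stood at 1.95, 1.67, 1.64, 2.58 and 1.71 scaled CPM in control 1 to 5. After pFUS it stood at 3.12, 3.18, 2.95, 5.73 and 4.50, again with no overlap. Its log2 fold change was 1.02 ± 0.21 (SE), with an adjusted p of 0.353 in edgeR and 0.0564 in DESeq2. Ddit4, an inhibitor of mTORC1 that glucocorticoids and low oxygen induce, stood at 1.91, 3.14, 2.09, 2.39 and 2.11 in the controls and at 2.98, 4.35, 4.01, 3.92 and 4.50 after pFUS. Control 2 lay above pFUS 6, so these groups overlapped. The log2 fold change was 0.76 ± 0.18 (SE), with an adjusted p of 0.401.

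Of 20 monocyte genes tested from a list of 24, 7 were higher and 0 lower at an unadjusted p under 0.05, beside 4.86% of all genes higher, and 0 passed the adjusted threshold. Their median log2 fold change was 0.36, with 18 above 0. Without controls 2 and 3, 2 of the 20 were higher at that p and the median was 0.26. The summed level of the list overlapped between groups, at 880 to 1556 scaled CPM in the controls and 1023 to 1466 after pFUS. Only Cd163, a haemoglobin scavenger receptor, was at 0 in all 10 libraries. In lean blood the list had a median of 0.42, with 2 members higher and 0 lower at an unadjusted p under 0.05.

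Cebpa, which specifies the myeloid lineage, had a log2 fold change of 0.72 ± 0.19 (SE), with 2.51 to 3.16 scaled CPM in the controls and 3.22 to 5.95 after pFUS. Klf4, a factor of monocyte differentiation, stood at 4.71 to 8.85 in the controls and 9.65 to 11.6 after pFUS. Nr4a1, an orphan receptor that patrolling monocytes need, stood at 5.49 to 10.9 and 10.5 to 19.3, with an overlap of 1 control and 1 pFUS library. Csf1r, the receptor that monocytes live by, stood at 57.7 to 95.0 and 78.4 to 137, with a log2 fold change of 0.55 ± 0.28 (SE). Clec4a3, a lectin receptor of myeloid cells, stood at 1.45 to 5.85 and 4.67 to 6.03. Cebpb, Cebpa and Klf4 were separated between the groups, while Nr4a1, Csf1r and Clec4a3 overlapped.

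**Figure D5:**
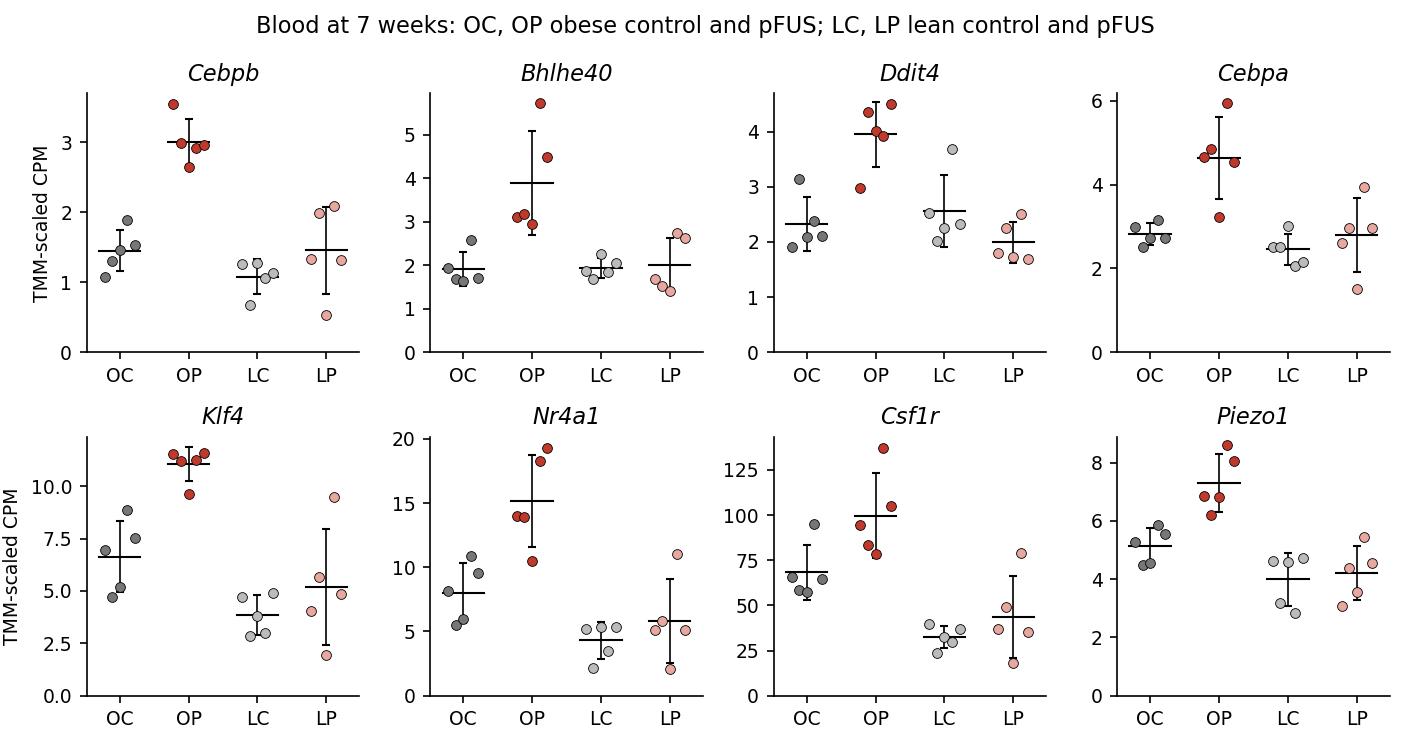
Scaled CPM of 8 genes in the 7-week blood libraries, 5 points a group with mean and SD, for obese control (OC), obese pFUS (OP), lean control (LC) and lean pFUS (LP). Obese pFUS lies above obese control without overlap for Cebpb, Bhlhe40, Cebpa, Klf4 and Piezo1, and the lean groups overlap for all 8.

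The 12 genes of at least 5 scaled CPM with the lowest p-values on the higher side had log2 fold changes of 0.41 to 0.80 and adjusted p-values of 0.445 to 0.465. They were Metrnl, Abi3, Arf6, Ier2, Vac14, Pycard, Id2, Rhob, Tppp3, RT1-DMb, Zpr1 and Gusb. Metrnl, a secreted hormone of macrophages and fat, stood at 3.27, 2.35, 2.72, 4.96 and 3.87 scaled CPM in the controls and at 5.21, 5.51, 5.15, 7.34 and 6.30 after pFUS. Ier2, an immediate early gene, stood at 4.86 to 6.77 in the controls and 6.78 to 9.14 after pFUS. Rhob, a small GTPase of endosomes that stimuli induce quickly, stood at 2.81 to 4.68 and 5.21 to 7.26. Id2, an inhibitor of helix-loop-helix factors in lymphoid and myeloid cells, stood at 1.62 to 4.35 and 4.46 to 5.81. All 4 of these genes had every pFUS library above every control.

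Among the others of the 12, Arf6 and Vac14 act in membrane traffic, Pycard is the adaptor of inflammasomes and RT1-DMb loads peptides onto class II molecules. Arf6 stood at 4.00 to 4.92 scaled CPM in the controls and 5.40 to 6.61 after pFUS, and Vac14 at 3.65 to 4.89 and 5.11 to 7.23. Pycard overlapped between the groups, with 7.11 to 11.4 and 10.3 to 13.7, as did Abi3, Tppp3 and Gusb. RT1-DMb stood at 5.44 to 10.2 and 10.4 to 13.5. Tlr2, the receptor for bacterial lipoproteins, stood at 3.03 to 4.39 and 4.45 to 5.90, the member of the inflammatory list with the largest log2 fold change among those of at least 5 scaled CPM in 1 group. Of the 20 inflammatory genes tested, Tlr2 and the less abundant Tnf were higher and 0 lower at an unadjusted p under 0.05, 10% beside 4.86% of all genes higher, with a median log2 fold change of 0.09. C3, the central complement protein, stood at 11.1 to 14.9 and 13.7 to 42.6, with pFUS 9 far above the rest.

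The mechanosensitive channels open when a membrane is stretched, and the adrenergic and cholinergic receptors receive signals of the autonomic nerves. Of 9 channels tested from a list of 18, Piezo1 was higher and Trpc6 lower at an unadjusted p under 0.05. Over all genes, 4.86% were higher and 4.37% lower at that p. The median log2 fold change of the channels was -0.22, and 0.55 on total counts. Piezo1, a cation channel active in red cells, stood at 5.28, 4.50, 4.55, 5.85 and 5.54 scaled CPM in the controls. After pFUS it stood at 6.85, 6.19, 6.83, 8.60 and 8.07, with no overlap and a log2 fold change of 0.50 ± 0.17 (SE) at an adjusted p of 0.465. Of the receptor list, 3 of 21 genes were tested and 0 reached an unadjusted p under 0.05.

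On the lower side, the rule for named genes gave 8 members of the heat shock list, St13 and 3 others. Plekhb1, a membrane adaptor best known from photoreceptors, stood at 18.0, 26.1, 44.0, 17.3 and 13.1 scaled CPM in the controls and at 8.03, 5.46, 13.7, 12.7 and 9.03 after pFUS. Control 5 lay below pFUS 8, and the log2 fold change was -1.28 ± 0.36 (SE). Tagap, a GTPase-activating protein of T cells, again was highest in controls 2 and 3, at 18.8 and 16.4 against 6.56 to 9.23 in the other 8. Fyb1, an adaptor of T cell receptor signalling and platelets, stood at 10.3 to 16.6 in the controls and 8.21 to 12.2 after pFUS. Tagap and Fyb1 read higher, by 0.18 and 0.31 log2 units, with total counts as the scale.

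The lowest p among all genes belonged to AC120486.9, an ID with no gene symbol, which stood at 0, 0, 1.52, 1.42 and 0.615 scaled CPM in the controls and at 0 to 0.0440 after pFUS. It passed the threshold without control 1, at an adjusted p of 0.0114, and without control 2, at 0.0300, both of which lack it. RT1-N2, a class Ib histocompatibility gene with near-identical copies that make its count uncertain, stood at 1.04, 1.62, 3.03, 3.96 and 1.89 in the controls and 0.884 to 1.15 after pFUS. Only control 1 lay within the pFUS range, and without it the adjusted p was 0.0466. Gfi1, a repressor that favours neutrophils over monocytes, stood at 0.471 to 0.696 and 0.250 to 0.308, with no overlap and a log2 fold change of -0.93 ± 0.22 (SE). Without pFUS 6 and pFUS 7, 1 gene passed the threshold, Adamts14, a procollagen protease, at 0.626 to 1.63 in the controls and 0.297 to 3.17 after pFUS.

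The direction of red cell genes other than haemoglobin depended on the scale. Of 50 red cell genes tested, 5 were lower and 0 higher at an unadjusted p under 0.05, 10% beside 4.37% of all genes lower, with a median log2 fold change of -0.49 and 47 below 0. With total counts as the scale the median was 0.26, beside 0.73 over all genes. Alas2 stood at 3295, 3454, 5858, 2758 and 2626 scaled CPM in the controls and at 1446, 1610, 3162, 2970 and 3083 after pFUS, a log2 fold change of -0.55 ± 0.40 (SE). As a share of all counts it read 0.16 log2 units higher after pFUS, so its direction turns with the scale. Car1 and Car2, the carbonic anhydrases of red cells, were lower on both scales, by log2 fold changes of -1.30 and -1.03 on the TMM scale and -0.27 and -0.18 on the total counts. Control 3 held 64.3 scaled CPM of Car1 and 1405 of Car2, well above all other libraries, and the rest of the controls still lay above the pFUS group for Car1.

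Of the 9 haem synthesis enzymes tested, 0 reached an unadjusted p under 0.05, and their median log2 fold change was -0.41, which was 0.44 on total counts. Among genes that red cells share with other cells, the catalase gene Cat stood at 126 to 278 scaled CPM in the controls and 69.0 to 121 after pFUS. B2m, the light chain of class I molecules, stood at 573 to 1122 and 425 to 553. On total counts B2m read 0.13 log2 units higher and Cat 0.13 lower. Akt2, a kinase of the insulin pathway, stood at 26.2 to 34.0 and 12.1 to 28.5, a log2 fold change of -0.61 that was 0.01 on total counts, and Slc25a20, the carnitine carrier of fatty acid oxidation, at 7.61 to 21.8 and 6.14 to 9.68. Of 20 insulin pathway genes tested, 2 were lower at an unadjusted p under 0.05 and 0 higher. Of 22 fatty acid oxidation genes, 1 was higher and 1 lower at that p. Over all genes, 4.86% were higher and 4.37% lower.

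Counts in the other blood cell lists at an unadjusted p under 0.05 stand beside 4.86% of all genes higher and 4.37% lower. Of 20 neutrophil genes tested, 1 was lower and 0 higher at an unadjusted p under 0.05. Their median log2 fold change was -0.34, which turned to 0.39 with total counts as scaling and to 0.07 without controls 2 and 3. S100a9, a neutrophil alarmin, stood at 21.0 to 61.8 scaled CPM in the controls and 14.1 to 44.8 after pFUS, a log2 fold change of -0.70 that was 0.21 on total counts. Of 24 T cell genes, 1 was lower and 0 higher at that p, with a median of -0.02, and of 20 B cell genes none reached that p, with a median of -0.06. On total counts these medians were 0.76 and 0.67. Of 19 natural killer and cytotoxic genes, 3 were higher (15.8%) and 0 lower, with a median of 0.34. Among them Gzmk, a granule protease, stood at 4.92 to 7.71 in the controls and 3.39 to 13.9 after pFUS. Of 21 platelet genes none reached that p, with a median of -0.53 that was 0.31 without controls 2 and 3 and 0.21 on total counts. Of the 5 eosinophil and basophil genes tested, 2 (40%) were lower at that p, Ccr3, the eotaxin receptor, and Mcpt8, a basophil protease, both named after their values were seen. All 5 were below 0, with a median of -0.98, from a list whose summed level was at most 8.42 scaled CPM.

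Of 38 interferon-stimulated genes tested, Isg20 and Herc6 were lower and 0 were higher at an unadjusted p under 0.05, with a median log2 fold change of -0.18 in obese blood and 0.68 in lean blood. On total counts the obese median was 0.60. In lean blood 12 of the 38 were higher and 0 lower at that p, beside 189 of all 9400 genes higher. The summed level of the list overlapped there, at 507 to 1565 scaled CPM in the controls and 525 to 1210 after pFUS. The highest of the lean pFUS sums was that of lean pFUS 19. Isg15, a ubiquitin-like interferon target, stood at 0.834, 1.05, 10.5, 6.70 and 13.7 scaled CPM in the obese controls and at 5.98, 2.20, 1.81, 2.03 and 2.00 after pFUS. Irf7, the factor that amplifies interferon, stood at 67.5 to 315 and 74.2 to 115. For both genes the controls split into low and high libraries around the pFUS group. Of 14 clock genes tested 1 was higher, and of 16 immediate early genes 3 were higher (18.8%, beside 4.86% of all genes), with 0 lower in either list. None of the 68 ribosomal protein genes and 2 of the 36 proteasome genes, both higher, reached that p. Of 6 histone genes, 1 was higher and 1 lower at that p. The counts of these lists stand beside 4.86% of all genes higher and 4.37% lower. H3f3b, a replacement histone, stood at 10.7 to 26.1 scaled CPM in the controls and 23.7 to 29.4 after pFUS, and Hist1h4b, which was lower, at 18.6 to 49.6 and 16.2 to 22.3.

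Whether obese and lean blood responded differently was tested in the same fit as the difference between their pFUS effects. At an adjusted p under 0.05 edgeR called 0 of 9400 genes, or 0%, and 357 genes, or 3.8%, reached an unadjusted p under 0.05. DESeq2 called 1, AABR07061378.1, a gene listed at 0 in many of the libraries. In the simulation this test recovered 20% of genes set to a 2-fold difference and 82% of those set to 4-fold. In lean blood alone edgeR called 0 genes, and 318, or 3.38%, reached an unadjusted p under 0.05. The 4 named genes with an obese effect above the lean one were Arf6, Vac14, Rhob and Gusb. Rhob had log2 fold changes of 0.64 in obese and -0.28 in lean blood, a difference of 0.92 ± 0.28 (SE). The 4 with an obese effect below the lean one were all chaperones, Hsph1, Dnaja1, Hsp90aa1 and Hspa8. Without obese controls 2 and 3 their differences, obese minus lean, moved from -2.91 to -0.36 for Hsph1 and from -2.32 to -0.90 for Dnaja1. They moved from -3.07 to -1.37 for Hsp90aa1 and from -1.31 to -0.43 for Hspa8. None passed the adjusted threshold with or without those controls. The controls were left out for their high levels of such genes, so smaller differences were bound to follow.

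Of the genes named on the higher side, Ddit4 differed most between the strains by p, with log2 fold changes of 0.76 in obese and -0.36 in lean blood. The difference of 1.12 ± 0.25 (SE) had an adjusted p of 0.999 in this test. Bhlhe40 had 1.02 in obese and 0.04 in lean blood, and Cebpb 1.05 and 0.42. In blood of the DIO-stz cohort, 4 controls against 5 pFUS rats fitted with sex, Cebpb had a log2 fold change of -0.17 ± 0.22 (SE), Bhlhe40 of -0.11 ± 0.22 (SE) and Ddit4 of -0.55 ± 0.18 (SE). None of these passed the threshold, and the 2 cohorts were not compared by a test. In other tissues of the obese rats, Bhlhe40 passed the threshold in the pancreas, where it rose by 1.66 ± 0.23 (SE) log2 units at an adjusted p of 0.00796. Cebpb had a log2 fold change of -1.37 ± 0.23 (SE) in the kidney at an adjusted p of 0.0598.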

How the data were processed

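RNA was taken up in RNAlater and sequenced from a stranded messenger RNA kit, per the labels' protocols. The deposited table holds the authors' expected counts per gene, and the submitters' processing notes name RSEM, STAR 2.5.3a and the build Rnor_6.0. Expected counts were rounded to whole numbers. The 20 blood libraries of the 7-week obese and lean groups were fitted together with edgeR 4.0.16 (TMM factors, filterByExpr with a minimum count of 10, robust quasi-likelihood test, Benjamini-Hochberg adjustment over the 9400 genes tested, threshold 0.05). Each SE was recovered from the F statistic and the log2 fold change. Single values per library were tested with exact permutation of the libraries in SciPy. The script was tested on simulated data with 200 changed genes. Where a symbol had several IDs, list counts use the one with the highest mean.

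The p-values set the difference between groups against the spread between rats. For the obese comparison in edgeR, that spread was estimated over the obese and lean blood libraries together. Named genes have a symbol and a mean of at least 5 scaled CPM in 1 of the groups: since none passed the threshold, the 12 with the smallest unadjusted p in each direction, the 4 in each direction for the difference between strains, up to 3 of the largest log2 fold changes per list, and blood cell and clock markers. Others were named after their values were seen. The members, the 35 gene lists and the rule were chosen with earlier results of these data known. Alternatives were DESeq2, other scalings, no filter and fits without single libraries or pairs of them. Intervals of counting error are not given, because counts are estimates shared between transcripts.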

Additional observations from a re-analysis of the deposited data

Results flagged for a closer look

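Of 130 groups of 5 libraries looked at, 12 (9.23%) held a library far from the other 4. Chance gives about 5% for independent, normally distributed values. These genes were partly chosen for their values and many move together, so no excess over 5% can be read from this. Obese control 3 was far above the other controls for 4 red cell genes, at 5858 scaled CPM of Alas2, 64.3 of Car1, 1405 of Car2 and 275860 of Hba-a2. It had the lowest scaling factor of the obese libraries, at 0.523, which raises its scaled values. By total counts Alas2 ran only from 2863 to 3601 CPM over the obese libraries, and control 3 did not stand apart. Obese control 4 was far above the other controls for Csf1r, at 95.0 against 57.7 to 65.9, and for Tppp3, a tubulin-binding protein, at 7.27 against 2.61 to 3.86. Obese pFUS 6 was far above the other pFUS libraries for 3 genes. S100a9 stood at 44.8 scaled CPM in it against 14.1 to 18.1, Isg15 at 5.98 against 1.81 to 2.20, and Hspa1b at 1.43 against 0 to 0.0594. Obese pFUS 9 stood at 42.6 scaled CPM of C3 against 13.7 to 21.9 in the other 4. Klf4 was lowest in obese pFUS 8, at 9.65 against 11.2 to 11.6, still above all controls. Stip1 was highest in obese pFUS 10, at 4.88 against 4.12 to 4.27, within the range of the controls.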

How the results depend on the processing

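At the adjusted threshold the obese comparison held 0 genes higher and 0 lower with RLE factors, haemoglobin genes out of the scaling, haemoglobin and red cell genes out of it, no filter, the 10 obese libraries alone and, both chosen after seeing the data, total counts as the scale and edgeR's older quasi-likelihood estimate. DESeq2 called 1 higher and 1 lower, and 1 for the difference between strains. Without lean control 12 and lean pFUS 18, 1 was higher. Without obese pFUS 6 and 7, a choice made after seeing the data, 1 was higher. Leaving out single libraries gave 0 called higher and 0 to 2 called lower, and 0 for the difference between strains.

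At an unadjusted p under 0.05 the count of higher genes was 709 without lean control 12 and lean pFUS 18, 3608 with total counts as the scale, 152 without obese controls 2 and 3, and 283 to 647 without 1 library. The count of lower genes was 739, 6, 163 and 259 to 591 under the same settings, and 637 with the 10 obese libraries alone. For the difference between strains the count, 357 in the main fit, was 557 with no filter, 569 without obese pFUS 6 and 7, and 288 to 623 without 1 library. The cause was not tested, apart from the fewer libraries or other genes that each setting enters by construction. Leaving out obese controls 2 and 3 was also a choice made after seeing the data.

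The haemoglobin share kept its direction throughout, with differences of -3.73 to -2.54 percentage points without 1 library, and lost its call when red cell genes were added, at -3.07. Among named genes, the sign turned without controls 2 and 3 for Hsp90ab1 (0.0077), Hspa1b (0.065), Cd79b (-0.041), Nrgn (0.40) and Pf4 (0.63). It turned for Ifit1 without control 3 alone (0.076, lowest without any 1 library -0.77). On total counts 14 of the 36 named genes below 0 turned above 0. No paired analysis was possible because controls are numbered 1 to 5 and pFUS rats 6 to 10, and they are different animals. A difference of 2-fold was recovered for 61% of genes in a simulation that drew genes independently. Differences of 2-fold and smaller may therefore be missed at this depth and number of rats.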

Other observations

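The high level of heat shock genes in 2 sham rats extended beyond the genes and tissues given above. Summed over the list, obese controls 2 and 3 held 680 and 657 scaled CPM in blood, against 185 to 225 in the other 8 obese libraries. By total counts this sum overlapped, at 165 to 564 CPM in the controls and 214 to 432 after pFUS, and control 3 lay below pFUS 6 and pFUS 7. Hspa1b, the inducible Hsp70, stood at 1940 and 1885 scaled CPM in the kidney of these 2 rats against 11.6 to 89.7 in the other 8, at 2133 and 1508 in the intestine against 3.72 to 38.5, and at 421 and 1172 in muscle against 0.813 to 7.79. In the brain it stood at 324 and 265 against 3.13 to 26.1, although Hspa8 there overlapped, at 1592 and 1441 against 1138 to 1613. The labels used here give no collection order, body temperature or time of anaesthesia for these rats.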
